A study of Mus musculus with 50 samples.

Results

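A group of 9 negative regulators and transcription factors that are switched on by ERK signaling were followed through 50 mammary gland (MG) tumors of mice: Dusp4, Dusp5, Dusp6, Spry1, Spry2, Spry4, Spred1, Etv4 and Etv5. They were found by gene name in a table of 37701 genes, in which each of the 9 members had 1 row, and all 9 passed the filter that left 16733 genes for testing (a mean of at least 0.5 RPKM, reads per kilobase of gene length per M reads). The tumors came from female p53R270H/+WAPCre mice, in which a Cre recombinase driven by the WAP promoter of mammary epithelium switches on 1 p53 allele with a point mutation, so that every group carried the mutant allele. From an age of 8 weeks the mice were injected under the skin every other day with vehicle, insulin, glargine, X10 or IGF1 until a tumor had formed, and 10 tumors of each group were sequenced. Besides insulin itself these ligands are glargine and X10, 2 insulins with altered amino acids, and the insulin-like growth factor IGF1. Doses are not given in the sample labels, in which the vehicle tumors are titled untreated and 1 IGF1 tumor is titled with the letters of IGF1 transposed. Each tumor was removed once it measured 1 cm3, and the last injection lay 24 h back, and the authors had chosen EMT-like tumors (with features of an epithelial to mesenchymal transition) whose latency was closest to the median of their group. Each tumor is named here by its group and mouse number.

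ERK is the last kinase of the RAS-RAF-MEK-ERK cascade, which insulin and IGF1 receptors and other receptor tyrosine kinases start. Active ERK turns on genes whose products dampen the cascade, and for that reason their transcripts are widely read as a record of how active the pathway has been. Dusp4, Dusp5 and Dusp6 encode phosphatases that remove the activating phosphates from ERK; DUSP6 works in the cytoplasm, while DUSP4 and DUSP5 work in the nucleus. Spry1, Spry2, Spry4 and Spred1 encode membrane-associated inhibitors that act at the level of RAS and RAF, Spred1 by bringing the RAS GTPase-activating protein neurofibromin (Nf1) to the membrane. Etv4 and Etv5 encode transcription factors of the PEA3 group of the ETS family, which bind DNA around a GGAA core and can be activated by ERK in mammary epithelium and its tumors.

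The promoters of Dusp5, Dusp6 and Etv5 are shown because the level of Etv5 went with that of the other two in opposite directions across the tumors, as described further on. RefSeq (GRCm38.p6) promoters were at hand for 6 of the members, with 7 windows of 250 bases before a transcription start; Dusp4, Etv4 and Spry4 were not matched. Each sequence runs 5′ to 3′ on the strand of its gene and ends at the base before the start, except that of Dusp5, which is shown up to the earlier start that GENCODE gives. Capitals mark each GGAA core (GGAA, or TTCC where it lies on the other strand) and each CArG box, the site of serum response factor, which works together with ETS factors on immediate early genes.
Dusp5, chr19:53528895-53529108, plus strand: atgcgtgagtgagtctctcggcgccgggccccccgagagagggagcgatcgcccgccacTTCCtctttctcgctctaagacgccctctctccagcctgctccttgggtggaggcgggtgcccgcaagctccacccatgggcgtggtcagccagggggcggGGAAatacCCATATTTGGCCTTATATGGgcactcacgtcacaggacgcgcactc
Dusp6, chr10:99262981-99263230, plus strand: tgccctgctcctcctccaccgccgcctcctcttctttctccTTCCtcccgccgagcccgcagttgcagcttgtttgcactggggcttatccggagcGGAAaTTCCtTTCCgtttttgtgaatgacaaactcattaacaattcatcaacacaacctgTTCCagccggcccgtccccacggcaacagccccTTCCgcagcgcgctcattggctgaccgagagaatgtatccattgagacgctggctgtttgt
Etv5, chr16:22438369-22438618, minus strand, the window of the inner of its 2 starts, inside the gene: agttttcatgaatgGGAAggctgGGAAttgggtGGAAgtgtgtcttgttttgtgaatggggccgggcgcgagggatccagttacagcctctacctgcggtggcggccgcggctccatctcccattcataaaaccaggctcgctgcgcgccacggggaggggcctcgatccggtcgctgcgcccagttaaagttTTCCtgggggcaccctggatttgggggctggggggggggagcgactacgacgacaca
The Dusp5 window held 2 CArG boxes that adjoin each other, starting 82 and 72 bases before the RefSeq start, which is 46 and 36 bases before the GENCODE start just past the sequence shown, beside 3 GGAA cores, of which the last lies past the part shown. A CArG box was present in 1.47% of 32851 promoters of this length, and 2 or more in 0.0183%. The Dusp6 window held 6 GGAA cores and the Etv5 window 4, whereas the window of the outer Etv5 start held 0; the median over all promoters was 3, and 93.4% of promoters had at least 1. The longer ETS site CCGGAA (12% of promoters), the AP-1 site TGANTCA (6.75%) and the cAMP response element TGACGTCA (1.55%) were found in 0 of the 7 windows on either strand. These last 3 motifs were searched first, and the GGAA core and the CArG box were added after the Dusp5 sequence had been read, so that these matches describe the sequences only. Each CCGGAA would also count as a GGAA core.

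All 9 genes were read in every tumor. As deposited, mean levels over the 50 tumors ranged from 92.9 ± 36.7 RPKM (SD, n = 50) for Etv4 and 76.4 ± 31.8 RPKM for Etv5 down to 5.89 ± 2.68 RPKM for Spry4. These levels cannot be compared between genes as they stand, because the gene lengths behind them are uneven. The RPKM of a gene are whole multiples of the value of 1 read, and the length this implies was 489 bases for Etv5 and 670 bases for Etv4, equal to the median length of their annotated transcripts but far under the longest ones (3975 and 2395 bases; GENCODE M21, GRCm38). The length equalled the median transcript for 6 of the 9 members and the longest for 3, with Dusp4 and Dusp5 counted under both since they have 1 transcript. For Dusp6 it was 2796 bases, the longest transcript. Across 9958 genes with a mean of at least 5 RPKM, 42.8% of lengths equalled the median transcript and 10.3% the longest.

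Per kilobase of the longest transcript, Dusp6 had the highest level, with a mean of 48.8 ± 14.4 (SD, n = 50). Etv4 followed with 26 ± 10.3, Spred1 with 22.1 ± 8.14, Dusp5 with 19.3 ± 8.95 and Dusp4 with 13.1 ± 8.33. Spry2 had 11.1 ± 4.34, Spry1 9.85 ± 9.04, Etv5 9.4 ± 3.91 and Spry4 5.68 ± 2.58. Etv5 thus stood 2nd of the 9 on the deposited scale and 8th on this one. Between neighbours in this order, only the step from Dusp6 to Etv4 was larger than 1 SD, and Dusp6 was above Etv4 in 46 of 50 tumors. Comparisons of 1 gene between tumors do not depend on the length, apart from a small effect through the pseudocount, and are given below in deposited RPKM.

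**Figure D1:**
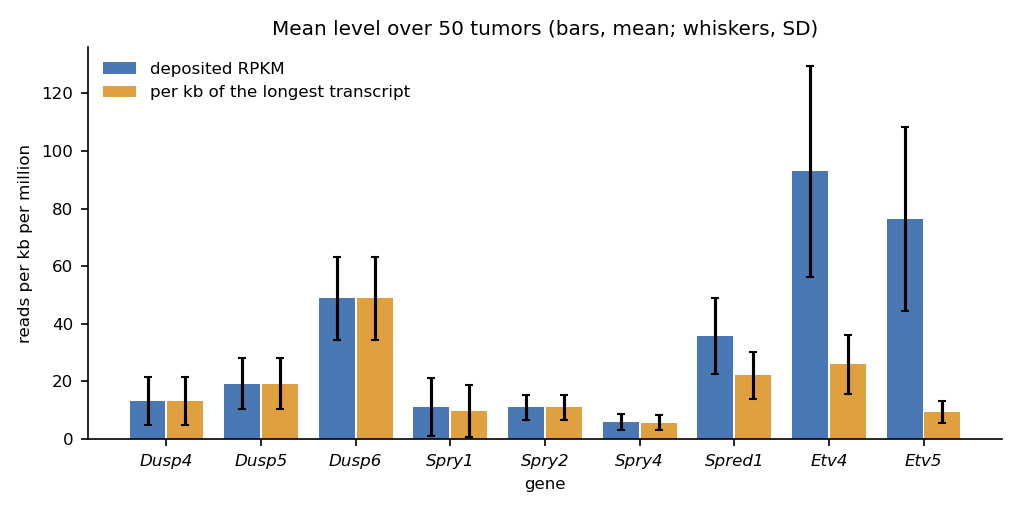
Mean level of the 9 genes over 50 tumors in reads per kilobase per M reads (y axis, from 0; whiskers, SD), as deposited (blue) and per kilobase of the longest transcript (orange). Etv4 went from 92.9 to 26 and Etv5 from 76.4 to 9.4 when rescaled, while Dusp6 had 48.8 on both scales.

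The first question was whether injection of a ligand, most of all of X10 and IGF1, which activate the IGF1 receptor strongly, left the tumors with another level of these genes. None of the 9 members passed the test between groups in limma (Benjamini-Hochberg adjusted p under 0.05 over 16733 genes) in any of 11 comparisons; the smallest adjusted p-value of the 99 tests was 0.235. Few genes of any kind passed this test: 0% of all genes tested for insulin against vehicle, 0% for glargine against vehicle, 0.0657% for X10 against vehicle, 0.00598% for IGF1 against vehicle and 0.155% for the 20 X10 and IGF1 tumors against the other 30. Between ligands the share was 1.78% for X10 against glargine, 0.102% for X10 against insulin, 0.00598% for IGF1 against insulin and 0% for each of the other 3. Without adjustment, 8 of the 99 member tests (8.08%) had a p-value under 0.05; across all genes that share was 11.1%, 6.23%, 11% and 8.84% for insulin, glargine, X10 and IGF1 against vehicle and 10.5% for X10 and IGF1 against the rest. Between ligands it was 3.96% (glargine against insulin), 11.3% (X10 against insulin), 7.3% (IGF1 against insulin), 11.6% (X10 against glargine), 6.98% (IGF1 against glargine) and 11.7% (X10 against IGF1). limma voom on reads recovered from the RPKM also gave 0 members. A test for any difference among the 5 groups called 0 members, with 0 members also at an unadjusted p under 0.05, against 0.102% and 13.1% of all genes. Treatment group accounted for 2.82% (Spry2) to 15.4% (Etv4) of the variance of a member in log2(RPKM + 0.5), and for 9.29% of the variance of the median gene. The 4 comparisons with vehicle share the same 10 vehicle tumors.

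Of the phosphatases, Dusp6 was read at 24.6 to 87.8 RPKM in vehicle tumors, with a median of 41.5. In X10 tumors it ranged from 44.6 to 71.8 RPKM with a median of 56.7, in insulin tumors from 35.2 to 82.1 with a median of 47.1, in glargine tumors from 26 to 69.8 with a median of 43.9, and in IGF1 tumors from 19.4 to 61.6 with a median of 50.7. All 10 X10 tumors lay above the log2 mean of the vehicle tumors, but their range fell inside that of the vehicle tumors. Its difference between X10 and vehicle was 0.44 in log2(RPKM + 0.5) (SE 0.19, 95% interval 0.06 to 0.82), with an unadjusted p-value of 0.0245 and an adjusted p-value of 0.388 in limma. It was 0.29 for insulin, 0.07 for glargine and 0.15 for IGF1. Without tumor vehicle_189, the lowest vehicle tumor, the glargine difference was -0.01 and that of IGF1 0.07; without tumor vehicle_182 the glargine difference was 0.19, and without tumor IGF1_160 that of IGF1 was 0.28. With the scores of 5 marker lists (epithelial, endothelial, leukocyte, skeletal muscle and adipocyte) as covariates, the insulin difference was 0.19. Library size was lowest in X10 tumors, with a median of 35.4 M reads against 44 M in vehicle tumors; with library size as a covariate the X10 difference was 0.37 with an unadjusted p-value of 0.0795.

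Dusp5 had similar medians in the 5 groups. Its median was 17.6 RPKM in vehicle tumors (7.32 to 59.6), 16.8 in insulin (10.8 to 24.6), 16.6 in glargine (9.06 to 25.4), 19.8 in X10 (9.86 to 35.4) and 19.4 in IGF1 tumors (4.95 to 30.4). The 59.6 RPKM of tumor vehicle_161 stood apart from the next vehicle tumor at 33.2. All 4 ligands lay below vehicle in the fit, by -0.11 (X10) to -0.34 (glargine), with adjusted p-values from 0.74 to 0.922, and these directions were not stable. Without tumor vehicle_161 the difference was 0.06 for X10 and -0.17 for glargine. With the 5 marker scores as covariates all 4 turned positive, from 0.02 (glargine) to 0.25 (insulin). Dusp5 rose with the epithelial score and fell with the leukocyte score. The mean epithelial score was 0.41 in vehicle tumors and -0.55 (IGF1) to 0.25 (X10) in the ligand groups. The mean leukocyte score was -0.43 in vehicle tumors and -0.06 (X10) to 0.34 (insulin) in the ligand groups. The highest Dusp4 level over the 50 tumors was 11.2 times the lowest, and that of Dusp5 12 times. The median of Dusp4 was 15.8 RPKM in vehicle (3.74 to 41.9), 7.61 in insulin (4.18 to 23.4), 9.76 in glargine (5.19 to 28.1), 14.8 in X10 (6.24 to 37.9) and 8.6 in IGF1 tumors (6.42 to 23.8). The vehicle and X10 medians were thus similar and above the other three, but all ranges overlapped, and the fitted difference from vehicle was -0.56 for insulin (SE 0.33, 95% interval -1.23 to 0.11), -0.43 for IGF1 and 0.05 for X10. Without tumor vehicle_161 these were -0.38, -0.25 and 0.23, and without tumor vehicle_186, the lowest of the 50, they were -0.75, -0.62 and -0.14. With the 5 marker scores as covariates they were -0.37 for insulin and -0.28 for IGF1.

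Among the RAS and RAF inhibitors, Spry1 came nearest to a difference. In 10 X10 tumors it had a median of 8 RPKM (3.49 to 10.3) and in IGF1 tumors of 6.94 (3.93 to 17.3). In vehicle tumors the median was 9.8 (5.28 to 29.2), in insulin tumors 10.3 (5.8 to 52.3) and in glargine tumors 9.31 (5.07 to 55.9). The medians therefore differed less than the means, which were 7.36 RPKM over the 20 tumors of X10 and IGF1 mice against 13.4 over the other 30, since single tumors at 52.3 and 55.9 RPKM drew up the insulin and glargine means. Of the 20 X10 and IGF1 tumors, 19 lay below the log2 mean of the other 30. So did most of those 30, as single high tumors raised that mean. The difference of the 20 from the other 30 was -0.61 in log2(RPKM + 0.5) (SE 0.22, 95% interval -1.04 to -0.17). Its unadjusted p-value was 0.00697 and its adjusted p-value 0.235 in limma. When each tumor was left out in turn, this difference stayed between -0.68 and -0.52 and the adjusted p-value between 0.139 and 0.375. Against vehicle alone it was -0.57 for X10 and -0.59 for IGF1, with adjusted p-values of 0.53 and 0.653.

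Spry2 had the smallest share of variance between groups, 2.82%. Group means ran from 10.1 ± 3.14 RPKM (SD, n = 10) in X10 to 12.4 ± 5.73 in IGF1 tumors, and the differences from vehicle from -0.1 to 0.14 in log2(RPKM + 0.5), with intervals that stayed within -0.56 and 0.6. Single tumors moved both ends, since the X10 difference was -0.19 without tumor X10_107 and -0.01 without tumor vehicle_187, and the IGF1 difference 0.01 without tumor IGF1_135 and 0.24 without tumor vehicle_187. Spry4 had its lowest mean in vehicle tumors, 5 ± 2.37 RPKM, and its highest in insulin tumors, 7.1 ± 4.5, where tumor insulin_14 at 19 RPKM lay far above the next at 8.18. All 4 ligands were above vehicle for Spry4, by 0.14 (glargine) to 0.41 (insulin), with adjusted p-values from 0.523 to 0.947, but the sizes rested on single tumors. The insulin difference was 0.24 without tumor insulin_14 and 0.53 without tumor vehicle_189, and the glargine difference 0.06 without tumor vehicle_174 and 0.26 without tumor vehicle_189. With the epithelial score as a covariate the insulin difference was 0.24. Spred1 had means of 41.1 ± 16.8 RPKM in glargine and 42 ± 12.7 in X10 tumors, against 32.3 ± 15.7 in vehicle, 31.5 ± 5.49 in insulin and 31.7 ± 9.64 in IGF1 tumors. The X10 difference from vehicle was 0.46 (SE 0.23, 95% interval 0 to 0.91), with an adjusted p-value of 0.454 in limma; without tumor vehicle_174, the lowest of all 50 at 10.9 RPKM, it was 0.3, and without tumor vehicle_197, the highest of its group at 70.2 RPKM, it was 0.595 (adjusted p-value 0.26 in limma).

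The ETS factors Etv4 and Etv5 had their lowest and highest medians in different groups. Etv4 had its lowest median in insulin tumors, 68 RPKM (50.1 to 117.6), and its highest in X10 tumors, 108 RPKM (49.5 to 165). It had a median of 90.1 RPKM in vehicle (45.9 to 233), 80.7 in glargine (53.3 to 154) and 95.9 in IGF1 tumors (52 to 153). Insulin tumors differed from vehicle by -0.45 in log2(RPKM + 0.5) (SE 0.22, 95% interval -0.89 to -0.01; adjusted p-value 0.435 in limma), and 9 of 10 lay below the log2 mean of vehicle. Without tumor vehicle_195, which had 233 RPKM, this was -0.31. X10 tumors were above insulin tumors by 0.59 (SE 0.22, 95% interval 0.14 to 1.03; unadjusted p-value 0.0103, adjusted 0.249 in limma) and IGF1 tumors by 0.47 (adjusted p-value 0.663).

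Etv5 instead had its lowest level in X10 tumors, where it was also least variable. Its median was 60.9 RPKM in X10 tumors (38.4 to 76.8), 72.8 in vehicle (24.5 to 117), 73.5 in insulin (52.7 to 114), 73.2 in glargine (55 to 181.7) and 71.2 in IGF1 tumors (43 to 153). X10 tumors differed from glargine tumors by -0.52 (SE 0.23, 95% interval -0.98 to -0.05; adjusted p-value 0.337 in limma) and from insulin tumors by -0.47 (adjusted p-value 0.439). Without tumor glargine_69, the highest of all 50 at 181.7 RPKM, the difference from glargine was -0.39. Against vehicle, X10 gave -0.16 and IGF1 0.24, and neither value was stable. They were -0.32 and 0.09 without tumor vehicle_174 and -0.07 and 0.33 without tumor vehicle_182, and with the 5 marker scores as covariates the IGF1 difference was -0.12.

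**Figure D2:**
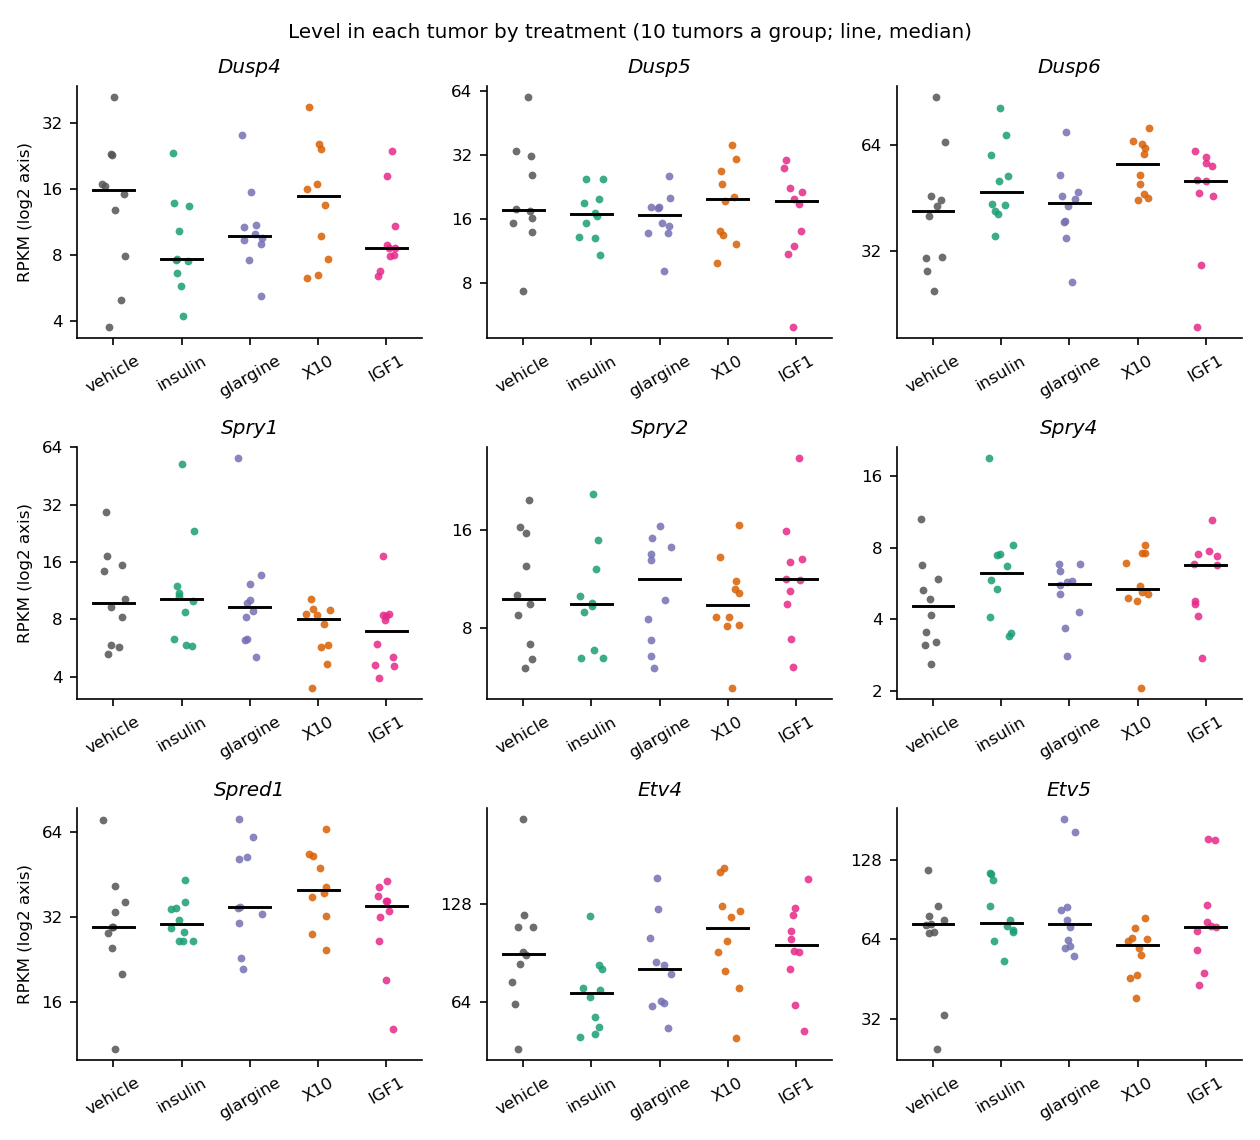
Level of each gene in 50 tumors (y axis, RPKM on a log2 axis) by treatment group (x axis), 1 point per tumor and a line at the median of 10 tumors. All groups overlap for every gene; Spry1 has its 2 highest tumors at 52.3 (insulin) and 55.9 RPKM (glargine), and Etv4 its lowest median, 68 RPKM, in insulin tumors.

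**Figure D3:**
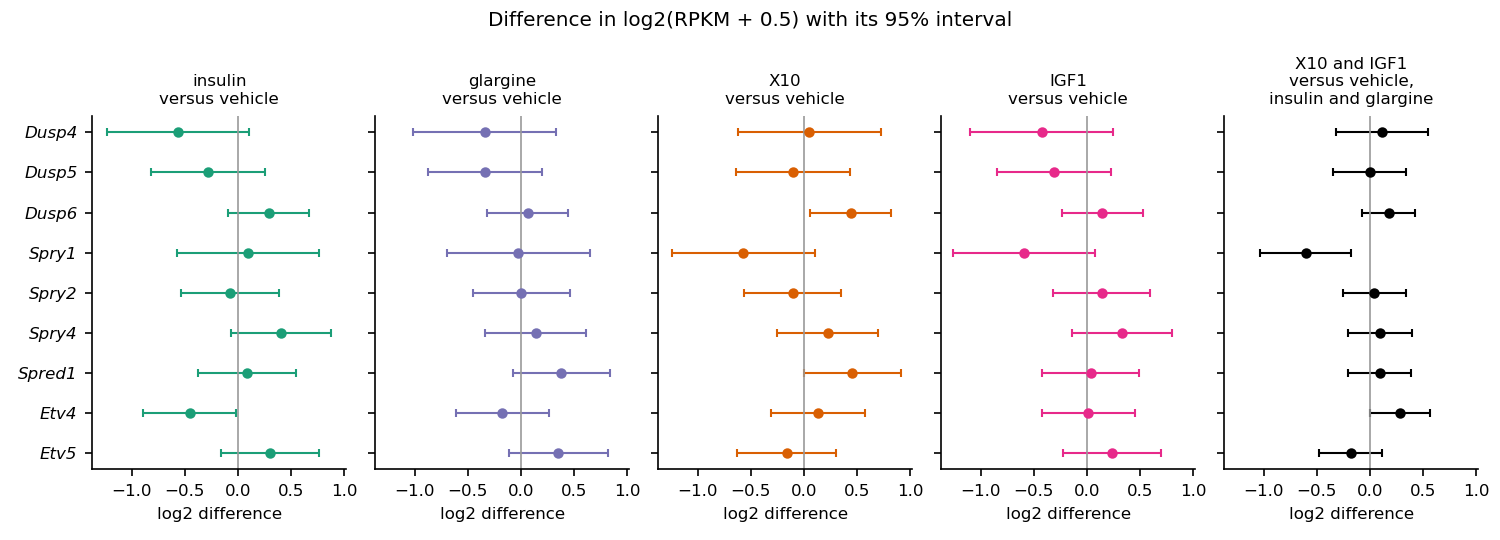
Difference between groups in log2(RPKM + 0.5) (x axis) of each gene (y axis), as a point with its unadjusted 95% interval, for 4 ligands against vehicle and for the X10 and IGF1 tumors against the other 30. The intervals of Etv4 for insulin, Dusp6 for X10 and Spry1 in the last panel leave out 0 before adjustment, and 0 members passed after it.

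The ranges overlapped in all 90 combinations of a member and a pair of groups; over all tested genes 0.0102% of such combinations did not overlap, so that overlap is the rule and sets the 9 genes apart from no others. Variation between tumors of the same treatment was large. The SD over all tumors in log2(RPKM + 0.5) was 0.79 for Spry1, which is more than that of 86% of tested genes, 0.78 for Dusp4 and 0.6 for Dusp5, and it was lowest for Dusp6 at 0.44; the median gene had 0.42. Of 16 tested genes among 17 further ERK targets (Phlda1, Ier3, Dusp7, Plaur and others), 10 immediate early genes (Fos, Egr1 and others) and 30 receptors and cascade components, 0 passed the test in any of the 11 comparisons, in which 0% to 1.78% of all genes passed. The smallest p-values were those of the adaptor Irs1 in IGF1 against vehicle (-0.9, SE 0.28, adjusted p-value 0.334 in limma) and the PDGF receptor Pdgfrb in IGF1 against insulin (-0.71, SE 0.22, adjusted p-value 0.539) among receptors and cascade genes. Among immediate early genes they were those of Egr1 in IGF1 against insulin (-0.58, adjusted p-value 0.542 in limma) and Egr2 in X10 against IGF1 (0.77, adjusted p-value 0.345). Among further ERK targets they were those of Il17rd, an inhibitor of FGF signaling, in X10 against insulin (-0.55, adjusted p-value 0.246 in limma) and Epha4 in IGF1 against insulin (-0.57, adjusted p-value 0.612).

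The second question was whether the 9 genes rose and fell together from tumor to tumor, as transcripts of 1 pathway might. Of the 36 pairs of members, 24 had a positive and 12 a negative Spearman correlation of log2(RPKM + 0.5) over the 50 tumors, with a median of 0.0783 and a range from -0.357 to 0.383. A two-sided permutation test of rho gave an unadjusted p-value under 0.05 for 9 pairs, 5 positive and 4 negative. A fit of every gene on the level of each member in SD units, with treatment group in the model, called 5 of 72 ordered member pairs positive (6.94%) and 3 negative (4.17%) at an adjusted p-value under 0.05. Across all tested genes the same fits called on average 6.58% positive and 4.48% negative, so that the members were called with each other about as often as genes in general. Of all genes, 3.07% were positive and 7.64% negative with Dusp4, 1.59% and 1.04% with Spry1, 2.19% and 0.287% with Spry2, and 4.52% and 3.45% with Spry4; 1.28% were negative with Dusp6, and the shares for the other members stand beside their calls.

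**Figure D4:**
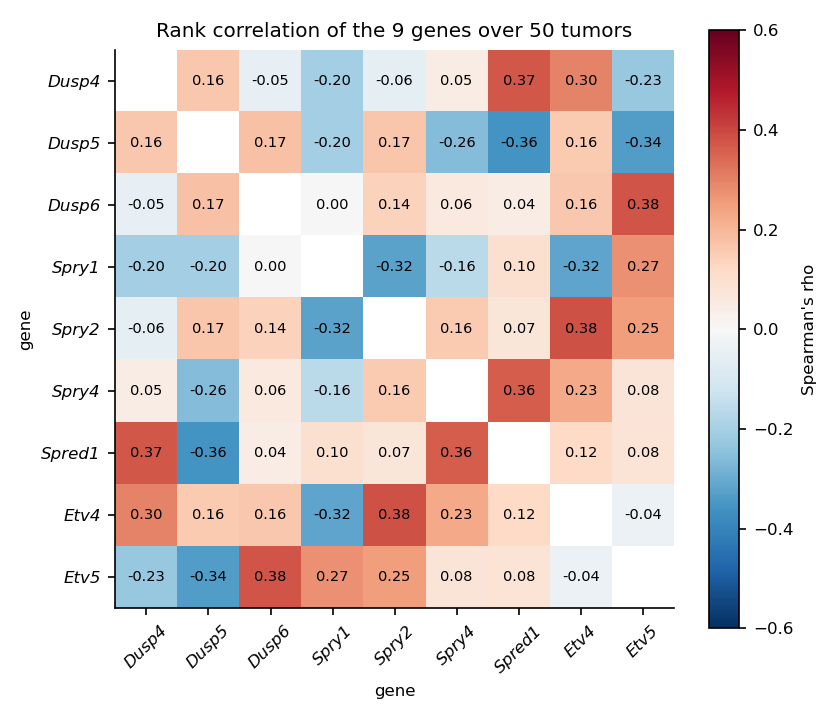
Spearman's rho between the levels of the 9 genes over 50 tumors (both axes, genes; color, rho from -0.6 to 0.6). The highest value is 0.383 for Spry2 with Etv4 and the lowest -0.357 for Dusp5 with Spred1, and Etv4 with Etv5 is close to 0.

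The pair with the firmest positive relation was Dusp6 and Etv5. Etv5 rose by 0.3 in log2(RPKM + 0.5) per SD of Dusp6 (SE 0.067, adjusted p-value 0.00438 in limma; 6.81% of all genes were positive with Dusp6), and Dusp6 by 0.24 per SD of Etv5 (SE 0.055, adjusted p-value 0.00176; 15% of all genes were positive with Etv5). Over all tumors, Pearson's r was 0.425 (permutation p = 0.00203) and Spearman's rho 0.379 (permutation p = 0.00674), and r was 0.552 after centring on group means. Within the groups r was 0.94 in insulin, 0.771 in glargine, 0.524 in IGF1, 0.422 in vehicle and 0.0226 in X10 tumors. The relation was thus positive in 5 of 5 groups and close to 0 in X10 tumors, in which both genes varied least. Without the 2 tumors farthest from the median of Dusp6 (IGF1_160 and vehicle_182), r was 0.352. With each tumor left out in turn, the adjusted p-value remained at or under 0.026.

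Dusp5 and Etv5 went in opposite directions. Etv5 fell by 0.24 per SD of Dusp5 (SE 0.068, adjusted p-value 0.0156 in limma; 6.68% of all genes were negative with Dusp5), and Dusp5 fell by 0.29 per SD of Etv5 (SE 0.082, adjusted p-value 0.00992; 3.61% of all genes were negative with Etv5). Pearson's r was -0.493 (permutation p = 0.00043) and Spearman's rho -0.335 (permutation p = 0.0179), and r was negative in 5 of 5 groups, from -0.83 in IGF1 to -0.00668 in X10 tumors. Tumor vehicle_161 had the highest Dusp5 (59.6 RPKM) with an Etv5 of 33 RPKM, and tumor IGF1_158 the lowest Dusp5 (4.95 RPKM) with an Etv5 of 152 RPKM. Without these 2 tumors r was -0.345. Without tumor vehicle_161 alone the adjusted p-value of Etv5 on Dusp5 was 0.0584 in limma. With any 1 tumor left out, the slope of Etv5 on Dusp5 lay between -0.268 and -0.198. Marker levels moved with both genes. In SD units of the summary score of a marker list, Dusp5 rose by 0.34 with epithelial markers (Cdh1, Epcam, keratins and claudins; adjusted p-value 0.00285 in limma, 5.95% of all genes positive) and fell by 0.35 with leukocyte markers (Ptprc, Csf1r, Cd68 and others; adjusted p-value 0.00122, 2.06% of all genes negative), whereas Etv5 rose by 0.29 with leukocyte markers (adjusted p-value 0.00244, 10.6% of all genes positive). With the 5 marker scores as covariates, the slope of Etv5 on Dusp5 was -0.16 (adjusted p-value 0.604 in limma) and that of Dusp5 on Etv5 -0.13 (adjusted p-value 0.317), and with the epithelial score alone, a setting chosen after seeing the data, the adjusted p-values were 0.0774 and 0.0576. The opposite course of Dusp5 and Etv5 was therefore not called once these scores were in the fit, whereas that of Dusp6 and Etv5 was called under all 12 alternative settings, with adjusted p-values up to 0.0319. No setting had the score of mesenchymal markers as a covariate, with which Dusp6 fell (-0.23, adjusted p-value 0.0121 in limma). In a whole tumor, fewer cells of a type and less RNA per cell cannot be told apart.

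**Figure D5:**
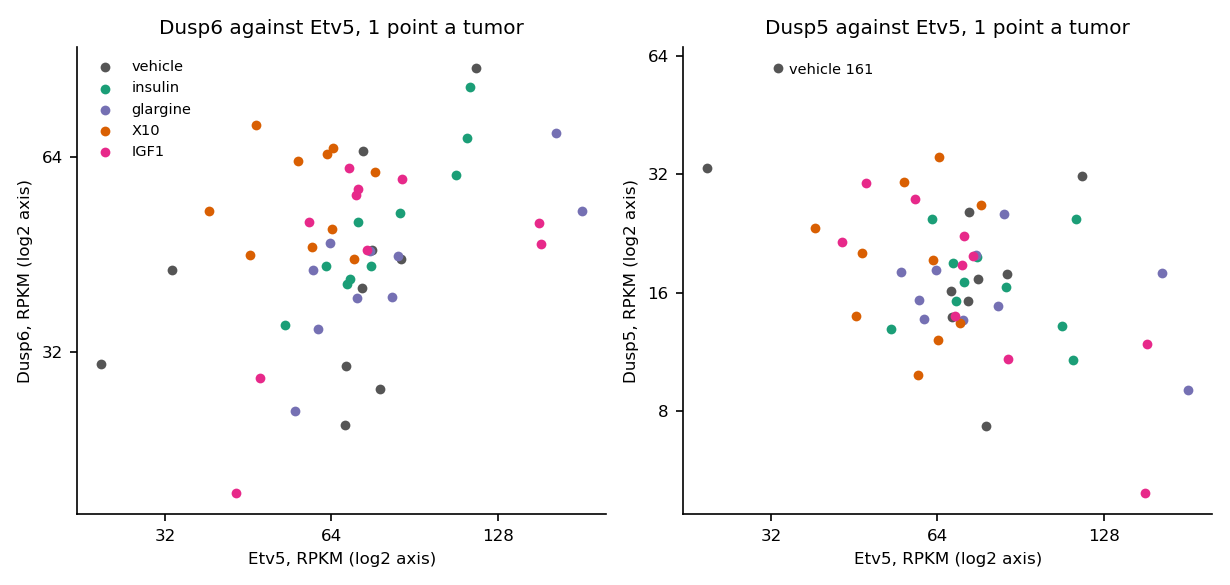
Dusp6 (left) and Dusp5 (right) against Etv5, in RPKM on log2 axes, with 1 point per tumor colored by treatment group. Dusp6 rises with Etv5 (r 0.425) and Dusp5 falls with it (r -0.493); tumor vehicle_161 lies at the upper left of the right panel, with 59.6 RPKM of Dusp5.

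The remaining calls among members involved Spred1 or Spry1, and each was lost when a single tumor was left out. Spry4 rose by 0.21 and Etv5 by 0.19 per SD of Spred1 (adjusted p-values 0.0242 and 0.0407 in limma), and without tumor vehicle_174 these p-values were 0.0719 and 0.262. Dusp5 fell by 0.24 per SD of Spred1 (adjusted p-value 0.0207 in limma), which was 0.102 without tumor vehicle_197. Spry1 rose by 0.32 per SD of Etv5 (adjusted p-value 0.0293 in limma), which was 0.149 without tumor glargine_69. The slopes kept their signs with any 1 tumor left out. On Spred1 they were 0.18 to 0.25 for Spry4, 0.11 to 0.21 for Etv5 and -0.26 to -0.18 for Dusp5. That of Spry1 on Etv5 was 0.2 to 0.37. Spred1 varied with a large part of all genes, 20.3% positively and 16.1% negatively, so that its calls with other members are common among genes. Spry2 with Etv4 (rho 0.383, permutation p = 0.00604; r 0.346, permutation p = 0.0137) and Dusp4 with Spred1 (rho 0.373, permutation p = 0.00836; r 0.33, permutation p = 0.019) had low unadjusted p-values but were not called in the fit over all genes. Etv4 and Etv5, both ETS factors of the PEA3 group, were not called with each other in either direction.

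Set against the wider pathway, Dusp5 had the highest number of calls with further ERK targets and with immediate early genes. It was called positive with 7 of 16 tested ERK targets (Phlda1, Epha2, Ier3, Dusp7, Spred3, Plaur and Myc) and 5 of 10 immediate early genes (Fosb, Junb, Egr1, Ier2 and Atf3), where 4.95% of all genes were called, and with 0 of either negatively. Per SD of Dusp5, Ier3, a survival factor, rose by 0.58 (SE 0.12, adjusted p-value 0.00126 in limma), the urokinase receptor gene Plaur by 0.31 (SE 0.078, adjusted p-value 0.00725) and Junb, an AP-1 subunit, by 0.24 (SE 0.058, adjusted p-value 0.00651). Of the receptors, Erbb2 rose by 0.37 (adjusted p-value 0.000165 in limma) and Egfr fell by 0.28 (adjusted p-value 0.00524). Etv5 and Spry1 ran the other way for some of the same genes: Ier3 fell by 0.54 per SD of either, and Plaur fell by 0.27 per SD of Etv5 and by 0.35 per SD of Spry1. Both rose with Spred2, by 0.28 for Etv5 and 0.26 for Spry1. The part of the epithelial and leukocyte scores in these relations was not tested.

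Dusp6 was called with 0 of the 16 further ERK targets and with 2 of 10 immediate early genes, Egr2 and Egr3, of which Egr3 rose by 0.4 per SD (SE 0.084, adjusted p-value 0.00256 in limma). The RAS exchange factor genes Sos1 and Sos2 and the RAS GTPase-activating protein gene Rasa1 were also positive with Dusp6, as were 6.81% of all genes. Dusp6 fell by 0.23 per SD of the mesenchymal marker score (adjusted p-value 0.0121 in limma, 1.42% of all genes negative). Spred1 was called with 17 of the 30 cascade genes, 12 positive and 5 negative, where 20.3% of all genes were positive and 16.1% negative. The RAS exchange factor Sos1 (0.31), Braf (0.3) and Nf1 (0.3) rose with Spred1, while Hras fell by 0.29, the MEK2 gene Map2k2 by 0.19 and the ERK1 gene Mapk3 by 0.21. Spred1 fell by 0.25 per SD of the epithelial score (adjusted p-value 0.0151 in limma, 6.48% of all genes negative).

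Spry2 and Spry4 both rose with the proliferation markers Mki67, Top2a, Ccnb1 and Cdk1, by 0.24 and 0.19 per SD of their score (adjusted p-values 0.00539 and 0.0441 in limma), as did Etv5 by 0.26 (adjusted p-value 0.00272) and 20.6% of all genes. Both were positive with the chromatin protein gene Hmga2 (0.43 per SD of Spry2, 0.39 per SD of Spry4) and negative with Fgfr2, an FGF receptor (-0.47 and -0.37). Spry2 was also positive with Ccnd1, the cyclin D1 gene. Dusp4 was called with Ier3, Fos and Junb, and with 4 receptor and cascade genes, among them Pdgfra and Pdgfrb. Etv4 was called with 0 genes of any of the 3 lists, and few genes at all varied with it, 0.825% positively and 0.215% negatively. No member was called with library size, with which 0% of all genes were called in either direction. None was called with endothelial, skeletal muscle or adipocyte markers, with which few genes of any kind were called. With endothelial markers 0.914% of all genes were positive and 0.323% negative. The shares were 1.21% and 0.0359% with skeletal muscle markers, and 1.01% and 0.0239% with adipocyte markers.

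The genes most like each member in rank over the 50 tumors were not other members. For Dusp6 they were Atp2b1 (rho 0.722), Mob3b (0.644) and Rffl (0.632), for Dusp5 Rem2 (0.733), Rassf7 (0.701) and 5830416P10Rik (0.68), and for Dusp4 Cyp26b1 (0.689), Rhov (0.679) and Lrfn4 (0.677). Spry1 was nearest to P2rx5 (0.679), Veph1 (0.678) and Sspn (0.66), Spry2 to Gm10093 (0.66), Gm6563 (0.655) and Gm13384 (0.651), and Spry4 to Mapk6 (0.7), an atypical MAP kinase gene, Grin2a (0.674) and Cul5 (0.666). Spred1 had the closest neighbors of all, Itgav (0.854), Dnmt3a (0.844) and Abi1 (0.833). The nearest genes of Etv4 were Sccpdh (0.725), Smarce1 (0.655) and Pgs1 (0.638), and those of Etv5 were Adap2 (0.702), Slc29a3 (0.693) and Aoah (0.684). These values are the highest of all tested genes and are given as descriptions only.

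The tumors differed widely in the cell types their markers record. The summed level of 10 epithelial markers ranged from 13.7 to 7216 RPKM, with the lowest and the highest both in the vehicle group. That of 6 leukocyte markers ranged from 642 to 2872 RPKM and that of 6 skeletal muscle markers from 2.94 to 4405 RPKM. Recovered library sizes ran from 26.6 to 51.9 M reads (median 40.9 M). Tumor vehicle_161, highest for Dusp4 and Dusp5 and lowest for Etv4, had the scores -1.38 for leukocyte and 0.892 for epithelial markers. Tumor vehicle_174, lowest for Spred1 and Etv5, had the highest epithelial score of all, 2.56. Mouse numbers and sample IDs ran group by group, so their order and treatment cannot be told apart.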

How the data were processed

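RNA was isolated from a piece of each of 50 tumors, Poly-A selected and sequenced on the Ion Proton. Per the labels and the study's methods, the authors aligned reads to GRCm38 with TopHat2 (2.0.10) and Bowtie2, counted them per gene with HTSeq (0.6.1) and deposited 1 table of RPKM values. No log transformation had been applied. The table holds no columns without a sample and no fold changes or p-values. The study's DESeq2 (1.2.10) comparison was not repeated here.

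Each gene was tested with limma (3.58.1, R 4.3.3) on log2(RPKM + 0.5) with an intensity trend and all 5 groups in 1 fit, over genes with a mean of at least 0.5 RPKM; fold changes on this scale understate changes of low genes. Benjamini-Hochberg adjustment covered all tested genes. For covariation, each gene was fitted on the z-score of a member or of a marker list (the mean z-score of its genes), with group in the model, which leaves 16732 genes when the member itself is taken out. Correlations used 100000 two-sided permutations. Gene length and library size were recovered from the steps of the RPKM values, for lengths up to 5000 bases, in 91.3% of tested genes; at least 96.4% of low values per tumor came out as whole reads. The recovery, the limma fit and the covariation fit were tested on simulated data. Alternatives were pseudocounts of 0.1 and 1, other filters (any nonzero value, or a mean of at least 5 RPKM), quantile and upper quartile scaling, no trend, only the groups compared, library size or the scores of 5 marker lists (epithelial, endothelial, leukocyte, skeletal muscle and adipocyte) as covariates, no group term for covariation, limma voom on recovered reads, and leaving out each tumor. Proliferation or epithelial score as a covariate was added after seeing the data. Python 3.11.15, numpy 2.4.6, scipy 1.17.1, pandas 2.3.3 and matplotlib 3.10.9 were used.

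All members are named. Of the 3 other lists, genes with an adjusted p-value under 0.05 were to be named, or else the 2 with the smallest p-values, taken over the 11 comparisons together; for each member the 3 genes of highest rank correlation are named, and genes called with a member were named after their values were seen. Members and lists were chosen with earlier results of these data known. Replicates are tumors of separate mouse numbers. Recovered reads without molecular identifiers cover counting error only. Coordinates and transcript lengths are from GENCODE M21 and RefSeq (GRCm38.p6); no position was converted between builds. Some genes of the lists are not reported here by name.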

Additional observations from a re-analysis of the deposited data

Results flagged for a closer look

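In 14 of 45 sets of 10 tumors (9 genes in 5 groups), the highest tumor stood apart from the next by more than Dixon's critical value of 0.466 of the group's range in RPKM. Chance flags about 1 in 20 where values are normally distributed, which was not tested for RPKM. On the log2 scale 3 of the 14 passed as well. These were Spry1 in tumor glargine_69 (55.9 RPKM, next 13.7), Spry1 in tumor IGF1_132 (17.3, next 8.53) and Spry4 in tumor insulin_14 (19, next 8.18).

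On the RPKM scale only, Spry1 stood apart in tumor vehicle_189 (29.2 RPKM, next 17.3) and tumor insulin_15 (52.3, next 23.3), so that this gene had a high tumor in 4 of 5 groups, X10 excepted. Tumor vehicle_189 was also highest of its group for Spry4 (10.6 RPKM, next 6.75). Dusp4 stood apart in tumor vehicle_161 (41.9 RPKM, next 23.2), tumor insulin_21 (23.4, next 13.7) and tumor glargine_73 (28.1, next 15.4), and Dusp5 in tumor vehicle_161 (59.6, next 33.2). Spry2 did so in tumor IGF1_135 (26.6 RPKM, next 16), Spred1 in tumor vehicle_197 (70.2, next 41.1), and Etv4 in tumor vehicle_195 (233, next 118.7) and tumor insulin_27 (117.6, next 83.2). The cause of these high values was not tested.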

How the results depend on the processing

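No member passed the test between groups under any of 13 alternative settings or with any 1 tumor left out. Under the settings, values of single members were kept for the comparisons with vehicle and for X10 and IGF1 against the rest. Their smallest adjusted p-value in limma was 0.179 (Spry1 in X10 and IGF1 against the rest, with the proliferation score as a covariate). With 1 tumor left out, the smallest over all 11 comparisons was 0.115 (Etv4 in X10 against insulin, without tumor X10_105). The number of ordered member pairs called positive was 5 of 72. It was 3 when all genes with a nonzero value were tested, and 4 after quantile normalization or with the epithelial score as a covariate. With a mean RPKM of at least 5, or with 5 marker scores as covariates, it was 6. Leaving out 1 tumor gave 3 to 7, with 3 calls without tumor glargine_69, IGF1_132, IGF1_160, vehicle_174 or X10_105. The 585 member differences under these settings cover the comparisons with vehicle and X10 and IGF1 against the rest, not those between ligands. Of these differences 28 turned sign, 12 of them with the 5 marker scores as covariates. The largest that did was that of Dusp5 in glargine against vehicle, -0.34. The number of all genes called moved more. For X10 against vehicle it was 11, and 1 (library size as a covariate) to 24 (all genes with a nonzero value) over the settings; for the X10 and IGF1 tumors against the rest 26, and 11 (all genes with a nonzero value) to 117 (proliferation score as a covariate); for X10 against glargine 298, and 142 (all genes with a nonzero value) to 382 (proliferation score); for X10 against insulin 17, and 8 to 64 under the same 2 settings; and for any difference among the 5 groups 17, and 0 (with library size as a covariate, and over every gene that is not 0 throughout) to 52 (proliferation score). With 1 tumor left out these counts were 1 to 21, 10 to 131, 76 to 577, 5 to 95 and 0 to 110. No paired analysis was possible because the groups share no mouse numbers. All 9 genes were read in every tumor, and what depth limits was not tested beyond the fit with library size as a covariate.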
